A study of Mus musculus with 14 samples.

Results

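The expression of 36 genes that act in the G2 phase and in mitosis was followed in 14 RNA-seq libraries of mouse follicular B cells. They were given as a list of symbols and comprise regulators of mitotic entry, Aurora kinases with the chromosomal passenger complex, the spindle checkpoint, genes tied to the anaphase-promoting complex, the kinetochore, spindle motors, cytokinesis and chromosome structure. All 36 were found among 39179 gene IDs, and all 36 were among the 12630 genes tested. The cells came from C57BL/6 mice of 3 genotypes. The dbko cells (relb-/-crel-/-) lacked the NF-kB subunits RelB and c-Rel, the cko cells (crel-/-) lacked c-Rel, and the wt cells were wild type. BAFF, a cytokine on which mature B cells depend for survival, was given at 50 ng/ml in every culture. The groups were dbko at 0h and 6h, cko at 0h and 6h, and wt at 0h, 6h and 27h, with 2 libraries each. The labels name no culture without BAFF, so BAFF and time in culture cannot be told apart.

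DNA is copied in S phase, and cells then pass through G2 into mitosis. Cyclins A and B activate Cdk1 for mitotic entry, Aurora and Polo-like kinases help to build the spindle, and the checkpoint waits until kinetochores are attached. The anaphase-promoting complex then marks cyclin B and securin for destruction. Transcripts of these genes build up as cells near mitosis. In resting cells the DREAM complex represses them, and in G2 the MuvB core with B-Myb and FoxM1 activates them. MuvB contacts the promoter element called CHR, and NF-Y binds CCAAT. In bulk RNA, a lower share of cycling cells and less RNA per cell cannot be told apart.

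Promoter letters are shown because the 36 genes moved together in most comparisons. RefSeq windows (GRCm38.p6, 250 bases before to 50 after the start) were at hand for 30 of the 36, and not for Tpx2, Aurkb, Cdc25c, Kif20a, Foxm1 and Ccna2. The CHR letters, TTTGAA or TTCGAA on either strand, were in 25 of 30 windows, or 83.3%, against 21.7% of 27025 genes. CCAAT on either strand was in 24, or 80.0%, against 41.1%. At least 2 copies of CCAAT were in 17 (56.7%, against 13.3%), and both elements were in 22 (73.3%, against 8.61%). The CHR letters nearest to the start lay within 50 bases of it in 23 of the 25. Such matches are descriptions and not shown binding sites. The 150 bases before the start are given for 6 of the genes called in 4 or more comparisons, 5′ to 3′ on the strand of the gene, with CCAAT, its reverse ATTGG and TTTGAA in capitals.
Cenpa, chr5:30666736-30666885, plus strand: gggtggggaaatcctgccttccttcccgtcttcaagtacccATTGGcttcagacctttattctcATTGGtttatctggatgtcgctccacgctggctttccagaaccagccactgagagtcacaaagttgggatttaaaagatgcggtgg
Plk1, chr7:122159285-122159434, plus strand: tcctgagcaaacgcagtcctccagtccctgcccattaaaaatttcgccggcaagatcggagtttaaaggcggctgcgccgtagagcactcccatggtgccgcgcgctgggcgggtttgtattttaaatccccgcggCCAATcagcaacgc
Ccnb2, chr9:70421555-70421704, minus strand: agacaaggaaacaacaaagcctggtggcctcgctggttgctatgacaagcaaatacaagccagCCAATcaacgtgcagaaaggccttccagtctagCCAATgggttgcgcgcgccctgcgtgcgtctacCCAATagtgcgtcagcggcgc
Cdk1, chr10:69352913-69353062, minus strand: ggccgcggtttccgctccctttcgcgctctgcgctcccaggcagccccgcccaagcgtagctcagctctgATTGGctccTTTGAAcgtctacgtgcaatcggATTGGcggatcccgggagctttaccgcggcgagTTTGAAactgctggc
Hmmr, chr11:40733438-40733587, minus strand: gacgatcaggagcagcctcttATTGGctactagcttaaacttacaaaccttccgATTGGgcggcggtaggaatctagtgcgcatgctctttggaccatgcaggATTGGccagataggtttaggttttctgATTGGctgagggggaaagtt
Cdca8, chr4:124936918-124937067, minus strand: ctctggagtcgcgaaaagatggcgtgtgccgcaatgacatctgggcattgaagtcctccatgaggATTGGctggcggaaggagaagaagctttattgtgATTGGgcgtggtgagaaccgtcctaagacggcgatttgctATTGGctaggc

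The CCAAT copies of Ccnb2 began 87, 54 and 21 bases before the start, 33 bases apart each time. The TTTGAA nearest to the start is shown for 5 of these genes within 26 bases. It began 15 bases before the start in Cdk1 and after the start in the other genes.
Cenpa, chr5:30666892-30666917: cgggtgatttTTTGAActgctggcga
Plk1, chr7:122159455-122159480: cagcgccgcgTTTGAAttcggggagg
Ccnb2, chr9:70421535-70421560: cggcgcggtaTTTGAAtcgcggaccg
Cdk1, chr10:69352912-69352937: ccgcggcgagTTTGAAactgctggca
Hmmr, chr11:40733414-40733439: ttgaggtaaaTTTGAAttcaggcgag

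Libraries held 10497802 to 11888765 gene counts. Levels are CPM (counts scaled to a common library size by TMM), given for replicate 1 and then replicate 2. Calls are at an adjusted p under 0.05 by edgeR's quasi-likelihood test with Benjamini-Hochberg adjustment, and changes are log2 fold changes ± SE. The pair of libraries of a group carries 1 adapter index in lanes 7 and 8, and nothing says that they are separate animals, so p-values measure only the spread between libraries. At 0h Rel was at 40 and 52.3 CPM in dbko and 58.3 and 52.4 CPM in cko, against 633 and 620 CPM in wt. Relb was at 52.9 and 65.6 CPM in dbko against 115 and 117 CPM in wt. Reads of both genes remained in the mutants. The B cell receptor gene Cd79a was at 647 CPM or more in every library.

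The 2 dbko libraries of each time stood apart in these genes. Replicate 1 over replicate 2 had a median of 2.64 over the 36 genes in dbko at 0h and 3.43 at 6h, against medians of 0.984 to 1.03 in the cko and wt groups. It exceeded 2 for 34 and 33 of the 36 in dbko, as for 6.96% and 9.4% of tested genes, and for 0 of the 36 in cko and wt. Cenpa had the lowest ratios, 1.12 at 0h and 1.09 at 6h, and the highest were 3.64 for Kif11 at 0h and 5.27 for Mki67 at 6h. The model estimates 1 spread per gene from all groups, so the dbko pair also enters the error in wt and cko. Comparisons of wt and cko are therefore given with all libraries and, as a choice made after seeing the data, without the 4 dbko libraries. Comparisons of dbko are given with and without each replicate.

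**Figure D1:**
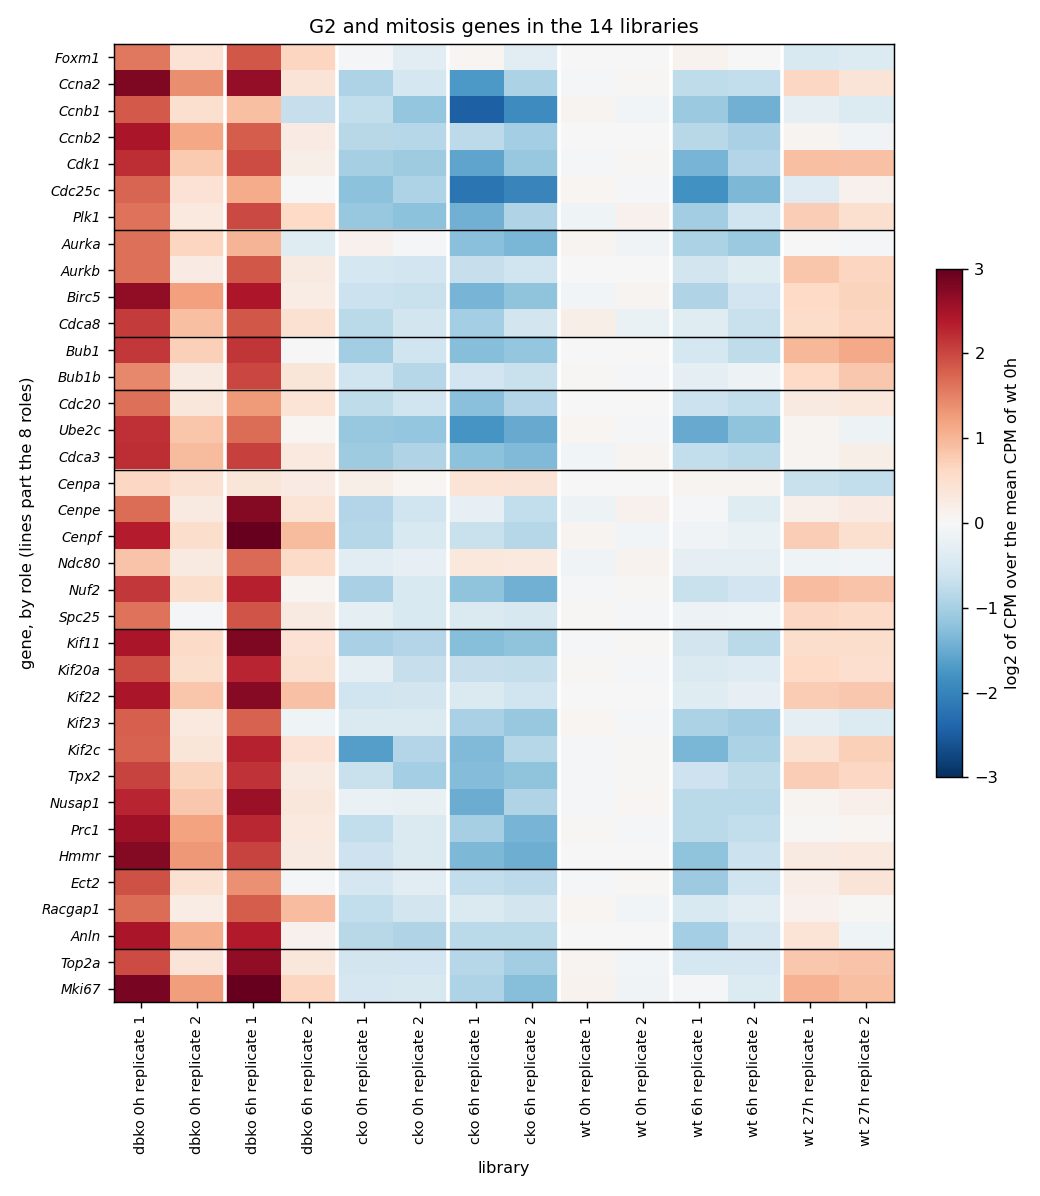
Log2 of CPM over the mean CPM of wt at 0h, for the 36 genes (vertical, by role) in the 14 libraries (horizontal). Replicate 1 of dbko is highest at both times, and Cenpa runs against most other genes in wt at 27h.

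Summed over the 36 genes, dbko held 3400 and 923 CPM at 6h with 2990 and 1150 at 0h. The cko sums were 440 and 425 CPM at 6h with 495 and 497 at 0h. The wt sums were 719 and 700 CPM at 0h, 515 and 508 at 6h, then 977 and 956 at 27h. Every dbko library was above, and every cko library below, both wt libraries of its time. Per kb of exon, averaged over libraries, Top2a had the highest level, 16.4 CPM per kb, and Cdc25c the lowest, 0.645 CPM per kb.

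In wt cells most of the 36 genes were lower at 6h than at 0h and higher at 27h than at 6h. The median change was -0.69 at 6h against 0h, 1.05 at 27h against 6h and 0.40 at 27h against 0h, with medians of 0.00, 0.01 and 0.00 over all tested genes. In the fit of all libraries 0 rose and 1 fell at 6h against 0h, where 22.6% and 23.5% of tested genes did. At 27h against 6h 3 rose and 1 fell (15.9% and 18.2%), and at 27h against 0h 0 rose and 1 fell (23.0% and 24.6%). Without the 4 dbko libraries 0 rose and 27 fell at 6h against 0h (28.9% and 29.9%), 32 rose and 2 fell at 27h against 6h (25.5% and 25.3%), and 18 rose and 3 fell at 27h against 0h (30.2% and 30.0%). Of these calls 19 of 27, 30 of 34 and 14 of 21 held with any 1 further library left out. Lost at 6h against 0h were calls of Kif20a, Aurkb, Racgap1, Nuf2, Bub1, Cdca8, Plk1 and Anln, at 27h against 6h those of Foxm1, Racgap1, Anln and Ccnb1, and at 27h against 0h those of Foxm1, Cenpf, Ccna2, Kif2c, Cdca8, Plk1 and Kif23. With the replicate number as a block within each genotype, and all libraries, 0 rose and 25 fell (25.6% and 27.3%) at 6h against 0h, 32 rose and 2 fell (21.2% and 22.0%) at 27h against 6h, and 18 rose and 3 fell (26.5% and 27.6%) at 27h against 0h. Both libraries of 6h lay above both of 0h for 2 members and below for 32 (tested genes 40.9% and 41.9%). At 27h the counts were 34 and 2 against 6h (40.5% and 39.0%) and 25 and 4 against 0h (41.8% and 41.7%).

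Among regulators of mitotic entry, Cdk1 (ENSMUSG00000019942, chromosome 10, 69335146 to 69352938) had the largest change of the 36 at 27h against 6h. Its wt level was 15.6 and 16.6 CPM at 0h, 6.13 and 8.74 at 6h, then 30.1 and 29.7 at 27h, with no overlap between times. It rose by 2.00 ± 0.59 at 27h against 6h (adjusted p = 0.0261, up to 0.144 with 1 library left out), and by 2.00 ± 0.16 without dbko. Cdc25c, the phosphatase that activates Cdk1, stood at 3.33 and 3.1 CPM at 0h, 0.915 and 1.27 at 6h, then 2.46 and 3.51 at 27h. It fell at 6h, at -1.54 ± 0.52 (adjusted p = 0.0276, up to 0.146 with 1 library left out), and rose at 27h against 6h, at 1.44 ± 0.51 (adjusted p = 0.0465, up to 0.213 with 1 library left out). Plk1, the Polo-like kinase, stood at 7.19 and 8.61 CPM at 0h, 3.84 and 5.26 at 6h, then 13.1 and 11.1 at 27h. It rose at 27h against 6h by 1.40 ± 0.49 (adjusted p = 0.0475, up to 0.216 with 1 library left out). These 3 had their lowest wt levels at 6h.

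Without dbko Ccna2 alone of the cyclins was called at 27h against 0h, and the cyclins were not tested against each other. Ccna2, cyclin A2, was at 24.6 and 25.6 CPM at 0h, 14.8 and 15 at 6h, then 38.6 and 33 at 27h. Ccnb1, cyclin B1, was at 7.08 and 6.29 CPM at 0h, 3.11 and 2.46 at 6h, then 5.43 and 5.03 at 27h. Ccnb2, cyclin B2, was at 12 and 11.8 CPM at 0h, 6.68 and 6.02 at 6h, then 12.6 and 11 at 27h. Without dbko all 3 fell at 6h and rose at 27h against 6h. Against 0h Ccna2 rose at 27h, by 0.51 ± 0.18 (adjusted p = 0.0228, up to 0.165 with 1 library left out), whereas Ccnb1 was at -0.35 ± 0.21 (adjusted p = 0.166) and Ccnb2 at -0.01 ± 0.14 (adjusted p = 0.964). Foxm1, an activator of G2 genes, took another course, with 20.6 and 21 CPM at 0h, 22.2 and 21.1 at 6h, then 15.2 and 15.6 at 27h. Without dbko Foxm1 fell at 27h, at -0.43 ± 0.15 against 0h (adjusted p = 0.0199, up to 0.0873 with 1 library left out) and -0.49 ± 0.14 against 6h (adjusted p = 0.0104, up to 0.0599 with 1 library left out).

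**Figure D2:**
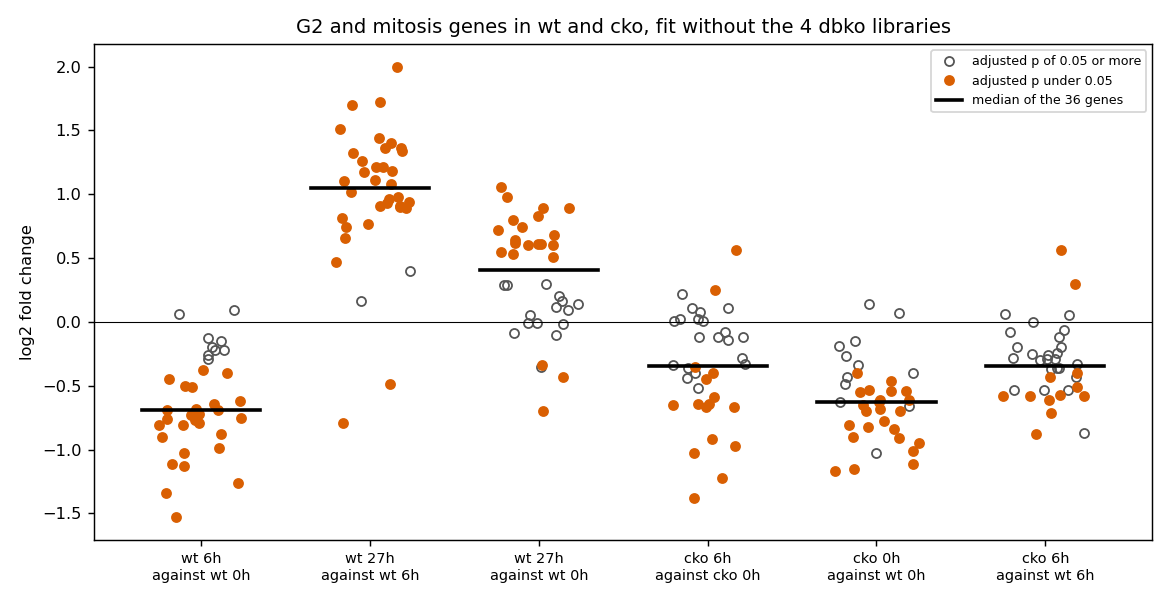
Log2 fold changes of the 36 genes in 6 comparisons of wt and cko without the 4 dbko libraries (points, filled at an adjusted p under 0.05; line, median). Most points lie below 0 at wt 6h against wt 0h and above 0 at wt 27h against wt 6h.

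All 4 genes of the Aurora kinases and the passenger complex, which corrects faulty attachments, fell at 6h and rose at 27h against 6h in wt without dbko. Aurka was at 14.4 and 12.6 CPM at 0h, 6.95 and 6.19 at 6h, then 13.5 and 13.2 at 27h, with 0h and 27h overlapping. Aurkb was at 18 and 18.1 CPM at 0h, 12.3 and 14.1 at 6h, then 31.9 and 28.1 at 27h. Birc5, which encodes survivin, was at 10 and 11.2 CPM at 0h, 5.67 and 7.13 at 6h, then 16 and 16.9 at 27h. Cdca8, which encodes borealin, was at 14.5 and 11.3 CPM at 0h, 10.1 and 8.15 at 6h, then 18.9 and 20.1 at 27h. The last 3 exceeded their 0h level at 27h, by 0.74 ± 0.12, 0.64 ± 0.15 and 0.61 ± 0.17, that of Cdca8 with an adjusted p = 0.00575, up to 0.0948 with 1 library left out. The checkpoint kinase Bub1 was at 10.6 and 10.8 CPM at 0h, 7.41 and 6.36 at 6h, then 21.2 and 23.5 at 27h. Bub1b, which encodes BubR1, was at 25.8 and 24.8 CPM at 0h, 20.6 and 22.6 at 6h, then 38.5 and 44.3 at 27h. Both were highest at 27h, by 1.06 ± 0.15 and 0.72 ± 0.12 over 0h.

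The genes tied to the anaphase-promoting complex were not called between 0h and 27h. Its activator Cdc20 was at 14.4 and 14.7 CPM at 0h, 9.24 and 8.74 at 6h, then 17.4 and 18 at 27h. Its ubiquitin-conjugating enzyme Ube2c was at 10.4 and 9.48 CPM at 0h, 3.48 and 4.33 at 6h, then 10.6 and 8.94 at 27h. Cdca3 was at 14.5 and 16.2 CPM at 0h, 9.15 and 8.83 at 6h, then 16.3 and 17.4 at 27h. Without dbko each of the 3 fell at 6h and rose at 27h against 6h.

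Kinetochore genes did not move as 1 group. Cenpa (ENSMUSG00000029177, chromosome 5, 30666777 to 30674830), the histone H3 variant of centromeres, was at 62.7 and 62.2 CPM at 0h, 65.8 and 66.6 at 6h, then 39.4 and 37.4 at 27h. It fell at 27h, at -0.70 ± 0.10 against 0h (adjusted p = 0.000136, up to 0.00374 with 1 library left out) and -0.79 ± 0.10 against 6h (adjusted p = 0.000145, up to 0.00442 with 1 library left out). Ndc80 (ENSMUSG00000024056, chromosome 17, 71496100 to 71526857), a microtubule-binding subunit of the outer kinetochore, was at 18.6 and 21.7 CPM at 0h, 16.7 and 16.8 at 6h, then 18.3 and 19.1 at 27h. Its partner Nuf2 was at 7.19 and 7.45 CPM at 0h, 4.57 and 4.92 at 6h, then 13.9 and 13.2 at 27h. Spc25, of the same complex, was at 7.39 and 7.06 CPM at 0h, 6.49 and 6.62 at 6h, then 11.1 and 10.8 at 27h. Without dbko, 27h against 0h gave 0.89 ± 0.17 for Nuf2 and 0.60 ± 0.15 for Spc25, both called, and -0.10 ± 0.12 for Ndc80 (adjusted p = 0.456). The kinetochore motor Cenpe was at 16.2 and 19.7 CPM at 0h, 17.4 and 13.9 at 6h, then 20 and 21.2 at 27h, and no wt change of it was called. Cenpf was at 10.6 and 9.38 CPM at 0h, 9.24 and 8.74 at 6h, then 16.6 and 14 at 27h, highest at 27h.

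Of 9 spindle motors and microtubule proteins, 8 fell at 6h and 9 rose at 27h against 6h in wt without dbko. Kif11, which pushes spindle poles apart, was at 28.1 and 29.1 CPM at 0h, 19.6 and 16.2 at 6h, then 41.3 and 41.1 at 27h. Tpx2, which activates Aurora A, was at 18 and 19 CPM at 0h, 12 and 10.9 at 6h, then 30.7 and 28.3 at 27h. Kif2c, which shortens microtubules, was at 6.25 and 6.48 CPM at 0h, 2.47 and 3.31 at 6h, then 8.74 and 10.5 at 27h. These 3, with Kif20a and Kif22, were higher at 27h than at 0h. Kif20a was at 17.9 and 16.8 CPM at 0h, 12.9 and 13.2 at 6h, then 26.2 and 24.6 at 27h. Kif22 was at 10.5 and 10.3 CPM at 0h, 8.14 and 8.83 at 6h, then 17.7 and 18.2 at 27h. Kif23, a motor of the central spindle, was lower at 27h than at 0h (-0.34 ± 0.11, adjusted p = 0.0178, up to 0.129 with 1 library left out), with 26.7 and 24.8 CPM at 0h, 13.4 and 12.4 at 6h, then 21.1 and 19.5 at 27h. Nusap1 was at 19.3 and 20.9 CPM at 0h, 11.4 and 11.5 at 6h, then 21.3 and 22.2 at 27h. Prc1, the bundler of the central spindle, was at 18.2 and 17.3 CPM at 0h, 10.2 and 10.6 at 6h, then 18.3 and 18.4 at 27h. Hmmr was at 10.7 and 10.4 CPM at 0h, 4.57 and 6.79 at 6h, then 12.8 and 12.9 at 27h. The last 3 were not called between 0h and 27h.

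The cytokinesis genes were not called between 0h and 27h either. Ect2, an activator of RhoA, was at 12.2 and 12.9 CPM at 0h, 5.94 and 8.23 at 6h, then 14.4 and 16.3 at 27h. Racgap1 was at 25.7 and 23.3 CPM at 0h, 17.8 and 19.6 at 6h, then 27 and 25.1 at 27h. Anln, anillin, was at 6.25 and 6.09 CPM at 0h, 3.02 and 4.33 at 6h, then 8.15 and 5.67 at 27h. The genes of chromosome structure were highest at 27h. Top2a, the topoisomerase that untangles sister DNA, was at 98.9 and 88 CPM at 0h, 64.4 and 66.1 at 6h, then 164 and 168 at 27h, and rose by 0.83 ± 0.09 over 0h without dbko. Mki67, the proliferation marker Ki-67, was at 74.5 and 64.4 CPM at 0h, 66.8 and 52 at 6h, then 144 and 130 at 27h, and rose by 0.98 ± 0.12. For Mki67 the 0h and 6h libraries overlapped.

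**Figure D3:**
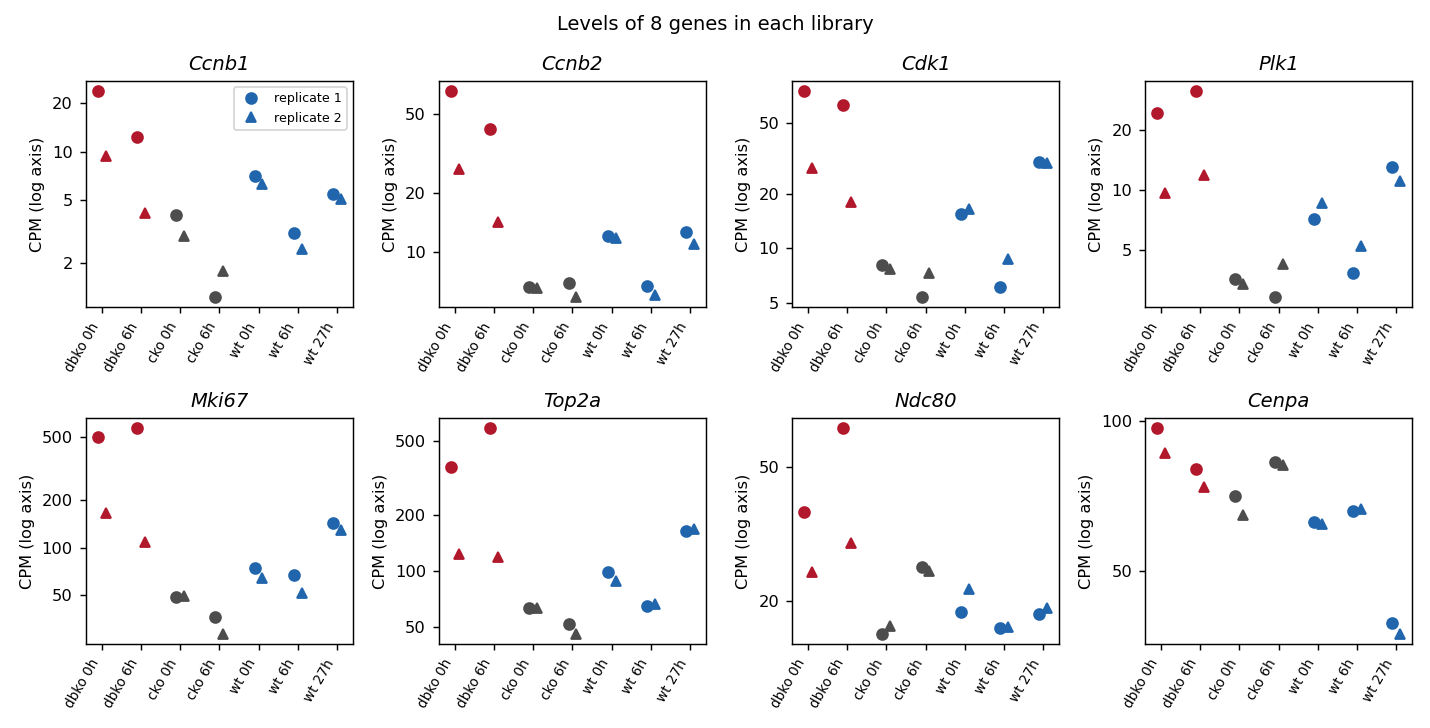
CPM (log axis) of 8 genes in each library, by group (circles, replicate 1; triangles, replicate 2). In Cdk1, Plk1, Mki67 and Top2a the dbko replicates lie far apart, whereas those of Cenpa lie close together and its level is lowest in wt at 27h.

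Related lists were read beside the 36 in wt. Of all tested genes 22.6% rose and 23.5% fell at 6h against 0h, and 15.9% and 18.2% did at 27h against 6h. Without dbko the shares at 27h against 6h were 25.5% and 25.3%. Of 37 S phase genes 29 rose and 1 fell at 27h against 6h (median 1.33), with Orc1, of the origin recognition complex, at 2.62 ± 0.33 (adjusted p = 0.000118). Of 50 further spindle, kinetochore and cytokinesis genes 7 rose and 2 fell in the fit of all libraries, and 40 rose and 4 fell without dbko. Of 15 genes of the anaphase-promoting complex 7 rose and 2 fell at 6h against 0h, with Cdc16 at 0.75 ± 0.10 and Anapc2 at 0.76 ± 0.11. Markers of other cells moved too. Of 9 germinal centre B cell markers 6 fell and 0 rose at 6h against 0h (median -1.12), and 4 fell and 0 rose at 27h against 6h. Of 17 erythroid markers 7 fell and 1 rose at 6h, and of 7 dendritic cell markers 4 fell and 1 rose. Of 11 follicular B cell markers 8 fell and 0 rose. The sum of 8 megakaryocyte and platelet markers was 45.2 and 42.5 CPM at 0h, 264 and 285 at 6h, then 34 and 38.9 at 27h. This rise was not shared by the list. Without dbko 1 of its 6 tested genes rose and 0 fell at 6h against 0h (median 0.34). Of 12 monocyte and macrophage markers 10 fell at 6h, and they summed to 155 and 158 CPM at 0h, 38 and 36.2 at 6h, then 69.5 and 75.6 at 27h. The defining marker Csf1r was at 32.5 and 36.8 CPM at 0h, 2.19 and 1.19 at 6h, then 2.21 and 1.68 at 27h. The part of such cells in the levels of the 36 genes was not tested.

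Cells lacking c-Rel had lower levels of most of the 36 genes than wt cells at 0h. The median difference was -0.66, against -0.02 over all tested genes. Both cko libraries lay above both wt libraries for 1 member and below for 34, as for 26.6% and 32.2% of tested genes. In edgeR's fit of all libraries 0 were higher and 0 lower (0.918% and 0.578% of tested genes), 1 had an unadjusted p under 0.05, and DESeq2 called 0. Without the 4 dbko libraries 0 were higher and 24 lower (5.72% and 4.42%). Of these 24 calls 5, for Kif11, Cdca3, Ube2c, Cdk1 and Top2a, held with any 1 further library left out. The counts that follow stand with the share of tested genes called in the same fit, in either direction. Without cko 0h replicate 1 and replicate 2 in turn, 10 (4.77%) and 8 (3.82%) were called, and without wt 0h replicate 1 and replicate 2 in turn, 9 (3.68%) and 9 (3.74%).

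Kif11 was at 14.5 and 15.5 CPM in cko against 28.1 and 29.1 CPM in wt, a difference of -0.90 ± 0.12 (adjusted p = 0.000227) without dbko. Cdca3 was at 7.3 and 8.25 CPM in cko against 14.5 and 16.2 CPM in wt. Ube2c was at 4.55 and 4.47 CPM in cko against 10.4 and 9.48 CPM in wt. Cdk1 was at 8.04 and 7.65 CPM in cko against 15.6 and 16.6 CPM in wt, and Top2a at 63.3 and 62.7 CPM in cko against 98.9 and 88 CPM in wt. In these 5, as in most of the 36 genes, the genotypes did not overlap.

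The cyclins and Plk1, all regulators of entry, were lower in cko at 0h without dbko. Ccna2 was at 13.2 and 17.4 CPM in cko, Ccnb1 at 4.02 and 2.98, Ccnb2 at 6.66 and 6.56 and Plk1 at 3.59 and 3.38, with Plk1 at -1.15 ± 0.24 (adjusted p = 0.00671, up to 0.0918 with 1 library left out). Cdc25c, at 1.37 and 1.69 CPM in cko, did not pass (-1.03 ± 0.31, adjusted p = 0.0513), nor did Foxm1, at 20.4 and 16.4 CPM in cko against 20.6 and 21 CPM in wt. Bub1 was at 5.18 and 7.05 CPM in cko, Bub1b at 16.7 and 13.9, Kif2c at 2.01 and 3.48 and Tpx2 at 11.6 and 9.14, each lower than in wt. Mki67 was lower at 49.1 and 49.8 CPM in cko against 74.5 and 64.4 CPM in wt (-0.46 ± 0.13, adjusted p = 0.0377, up to 0.291 with 1 library left out). Aurka, at 14.8 and 12.9 CPM in cko against 14.4 and 12.6 CPM in wt, overlapped between genotypes. Cenpa, at 70.6 and 64.8 CPM in cko against 62.7 and 62.2 CPM in wt, was above wt in both libraries without passing the test (0.14 ± 0.09, adjusted p = 0.326).

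At 6h the median difference of cko against wt was -0.33. In edgeR's fit of all libraries 0 were higher and 0 lower (1.58% and 1.96% of tested genes), 1 had an unadjusted p under 0.05, and DESeq2 called 0. Without dbko 2 were higher and 10 lower (8.38% and 9.09%). Both cko libraries lay above both wt libraries for 2 members and below for 22 (tested genes 27.6% and 24.1%). Of the 12 calls, those of Mki67 and Ndc80 held with any 1 further library left out. Without cko 6h replicate 1 and replicate 2 in turn, 13 (33.9%) and 12 (19.5%) were called, and without wt 6h replicate 1 and replicate 2 in turn, 5 (8.57%) and 3 (7.93%). Mki67 was at 36.6 and 28.5 CPM in cko against 66.8 and 52 CPM in wt, or -0.88 ± 0.13 (adjusted p = 0.000457). Ndc80 was at 25.2 and 24.5 CPM in cko against 16.7 and 16.8 CPM in wt, or 0.56 ± 0.11 (adjusted p = 0.00397). Top2a was lower, at 51.8 and 45.7 CPM in cko against 64.4 and 66.1 CPM in wt. Cenpa was higher, at 82.6 and 81.7 CPM in cko against 65.8 and 66.6 CPM in wt, or 0.30 ± 0.08 (adjusted p = 0.021, up to 0.141 with 1 library left out).

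Within cko, 6h against 0h had a median of -0.31. In the fit of all libraries 1 rose and 1 fell (21.8% and 20.1% of tested genes), and without dbko 2 rose and 14 fell (27.1% and 27.7%). With the replicate number as a block within each genotype 2 rose and 9 fell (25.0% and 23.9%). Of the calls without dbko, those of Kif11, Nuf2, Tpx2, Ccna2, Cenpa, Prc1 and Cdc25c were lost with 1 further library left out. Both libraries of 6h lay above both of 0h for 3 members and below for 22 (tested genes 38.2% and 35.0%). Aurka fell, at 5.62 and 5.23 CPM at 6h against 14.8 and 12.9 CPM at 0h, a change of -1.35 ± 0.42 (adjusted p = 0.0236, up to 0.109 with 1 library left out). Cenpa rose by 0.28 ± 0.10 (adjusted p = 0.0385, up to 0.219 with 1 library left out), with an adjusted p of 0.136 in DESeq2. Without dbko Ccnb1 fell (1.23 and 1.8 CPM at 6h against 4.02 and 2.98 CPM at 0h), as did Nusap1 (7.2 and 10.7 CPM at 6h against 17.4 and 17.1 CPM at 0h), and Ndc80 rose by 0.56 ± 0.12. On plain library totals the cko sum of the 36 was 455 and 438 CPM at 6h against 439 and 438 CPM at 0h, so its lower value at 6h is not kept on that scale.

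Ccna2 and Cdc25c, of the regulators of entry, also fell at 6h in cko without dbko. Ccna2 was at 7.56 and 13.1 CPM in cko at 6h, Ccnb2 at 6.94 and 5.88, Cdk1 at 5.36 and 7.27, Cdc25c at 0.703 and 0.817, Plk1 at 2.9 and 4.25 and Foxm1 at 21.8 and 16.4. Aurkb had 11.2 and 11.9 CPM (6h) and 12.5 and 12.1 CPM (0h), Birc5 4.04 and 4.57 CPM (6h) and 6.77 and 6.66 CPM (0h) and Cdca8 6.41 and 8.82 CPM (6h) and 7.4 and 8.84 CPM (0h). Of these Birc5 fell at 6h without dbko. Bub1 had 4.39 and 4.82 CPM at 6h and Bub1b 17.1 and 15.9, and neither was called between the times.

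Among genes tied to the anaphase-promoting complex none was called in cko between the times. Cdc20 had 6.06 and 7.92 CPM (6h) and 8.56 and 9.54 CPM (0h), and at 6h Ube2c had 2.9 and 3.51 CPM and Cdca3 6.59 and 6.12. Of the kinetochore genes, Cenpe had 15.2 and 10.8 CPM (6h) and 9.73 and 11.9 CPM (0h), Cenpf 6.33 and 5.55 CPM (6h) and 5.5 and 7.25 CPM (0h), Nuf2 3.16 and 2.69 CPM (6h) and 3.7 and 5.36 CPM (0h) and Spc25 5.36 and 5.14 CPM (6h) and 5.92 and 5.27 CPM (0h). Nuf2 alone of these 4 fell at 6h without dbko.

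Of the spindle motors and microtubule proteins, Kif11, Tpx2, Kif23, Prc1 and Hmmr fell in cko at 6h without dbko, as Nusap1 did. At 6h Kif11 had 11.8 and 12.3 CPM, Kif2c 2.55 and 3.51 and Tpx2 7.47 and 8. Kif20a had 10.8 and 10.5 CPM (6h) and 14.5 and 10.8 CPM (0h), Kif22 7.64 and 6.86 CPM (6h) and 6.87 and 7.15 CPM (0h) and Kif23 13.1 and 11.8 CPM (6h) and 19.1 and 19.2 CPM (0h). Prc1 had 8.87 and 6.78 CPM (6h) and 10.6 and 13.1 CPM (0h) and Hmmr 4.13 and 3.84 CPM (6h) and 6.87 and 7.85 CPM (0h). The cytokinesis genes, with 7.56 and 7.27 CPM (6h) and 8.78 and 9.84 CPM (0h) for Ect2, 18.2 and 16.6 CPM (6h) and 14.8 and 16.6 CPM (0h) for Racgap1 and 3.51 and 3.51 CPM (6h) and 3.49 and 3.28 CPM (0h) for Anln, were not called between the times.

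The 6h response of cko differed from that of wt for 0 members in edgeR's fit of all libraries (0.554% of tested genes higher and 1.15% lower), with 0 at an unadjusted p under 0.05 and 0 in DESeq2. Without dbko it was higher for 2 and lower for 0 (5.31% and 7.12%). Ndc80 differed by 0.83 ± 0.17 (adjusted p = 0.00535, up to 0.0444 with 1 library left out). Ccnb2 differed by 0.82 ± 0.23 (adjusted p = 0.0338, up to 0.122 with 1 library left out).

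Marker lists of other cells also differed between cko and wt at 0h. Of all tested genes 0.578% were lower in cko at 0h and 1.96% at 6h, and without dbko 4.42% and 9.09%. The sum of 16 erythroid markers (Tfrc left out, since B cells carry it) was 128 and 135 CPM in cko against 32.7 and 38.3 CPM in wt. Monocyte and macrophage markers summed to 40.2 and 36.3 CPM in cko against 155 and 158 CPM in wt, and 6 of 12 were lower. Of 9 germinal centre B cell markers 1 was lower in cko at 0h and 4 were at 6h. Without dbko 6 were lower at 0h (median -0.84) and 5 at 6h (median -0.53), with 0 higher at either time. The sum of that list was 368 and 350 CPM in cko against 350 and 367 CPM in wt at 0h. Their part in the differences of the 36 genes was not tested.

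At 6h most of the 36 genes were higher in cells lacking RelB and c-Rel than in wt or cko cells, and at 0h fewer passed the test. The median difference from wt was 1.45 at 0h and 2.20 at 6h, and from cko 2.29 at 0h and 2.59 at 6h. In the fit of all libraries 4 higher and 0 lower were called against wt at 0h (7.1% and 4.55% of tested genes), and 34 higher and 0 lower against wt at 6h (15.2% and 11.5%). Against cko 20 higher and 0 lower were called at 0h (6.63% and 2.39%), and 32 higher and 0 lower at 6h (8.77% and 4.66%). With the replicate number, which marks the lane, as a block, 10 higher and 0 lower were called against wt at 0h (7.63% and 4.97%). The comparisons with wt and with cko share the dbko libraries. Both dbko libraries were above both wt libraries for 35 members and below for 0 at 0h (tested genes 28.8% and 29.8%), and for 36 and 0 at 6h (34.4% and 29.4%). Against cko the counts were 36 and 0 at 0h (27.7% and 25.5%) and 35 and 1 at 6h (24.3% and 21.9%).

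The size of the difference depended on the library. Over the wt mean, the median ratio of the 36 at 0h was 3.98 in dbko replicate 1 and 1.45 in replicate 2, and at 6h it was 7.01 and 1.93. The members called with 1 library left out are given with the share of tested genes called in the same fit, in either direction. Against wt at 6h, without dbko 6h replicate 1 and replicate 2 in turn, 5 (17.3%) and 35 (33.0%) were called, and without wt 6h replicate 1 and replicate 2 in turn, 1 (12.1%) and 3 (10.5%). Against wt at 0h, without dbko 0h replicate 1 and replicate 2 in turn, 1 (4.82%) and 34 (24.2%) were called, and without wt 0h replicate 1 and replicate 2 in turn, 1 (3.63%) and 0 (3.6%). Against cko at 6h, without dbko 6h replicate 1 and replicate 2 in turn, 5 (5.95%) and 35 (23.4%) were called, and without cko 6h replicate 1 and replicate 2 in turn, 0 (4.49%) and 3 (7.01%). Against cko at 0h, without dbko 0h replicate 1 and replicate 2 in turn, 0 (2.91%) and 36 (23.6%) were called, and without cko 0h replicate 1 and replicate 2 in turn, 0 (1.98%) and 0 (1.8%).

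With a whole dbko replicate left out at both times, the lone dbko libraries are assumed to vary like the other groups. Without replicate 1, 20 higher and 0 lower were called against wt at 0h (8.0% and 4.55% of tested genes) and 33 higher and 0 lower at 6h (16.4% and 13.8%). Against cko 34 higher and 0 lower were called at 0h (6.39% and 3.02%) and 34 higher and 0 lower at 6h (9.45% and 6.75%). Without replicate 2, 36 higher and 0 lower were called against wt at 0h (19.7% and 16.9%) and 36 higher and 0 lower at 6h (24.0% and 20.0%). Against cko 36 higher and 0 lower were called at 0h (19.8% and 15.2%) and 35 higher and 0 lower at 6h (18.6% and 15.9%).

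**Figure D4:**
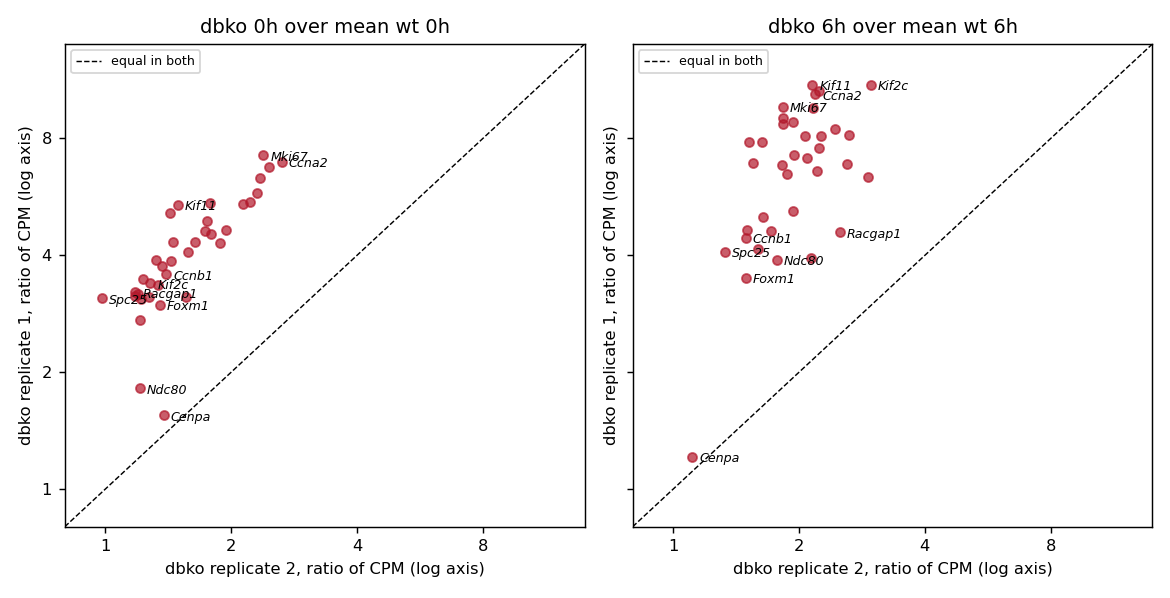
Ratio over the wt mean of the same time of each of the 36 genes in dbko replicate 1 (vertical) and replicate 2 (horizontal), on log axes (left, 0h; right, 6h; dashed line, equality). The medians are 3.98 and 1.45 at 0h and 7.01 and 1.93 at 6h, and Cenpa lies near the line.

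The cyclins were higher in both dbko libraries. Ccna2 was at 175 and 66.3 CPM in dbko against 24.6 and 25.6 CPM in wt at 0h. At 6h it was at 155 and 32.6 CPM in dbko against 14.8 and 15 CPM in wt, higher by 2.65 ± 0.69 (adjusted p = 0.0217). Ccnb2 (ENSMUSG00000032218, chromosome 9, 70407692 to 70421547) was at 65.4 and 26.4 CPM in dbko against 12 and 11.8 CPM in wt at 0h, higher by 1.95 ± 0.49 (adjusted p = 0.0306, up to 0.214 with 1 library left out). Ccnb1 was at 23.8 and 9.38 CPM in dbko against 7.08 and 6.29 CPM in wt at 0h. At 6h Ccnb2 was at 42 and 14.1 CPM in dbko against 6.68 and 6.02 CPM in wt, and Ccnb1 at 12.4 and 4.14 CPM in dbko against 3.11 and 2.46 CPM in wt. Replicate 1 was the higher of the dbko pair each time. Cdk1 was at 74.7 and 27.9 CPM in dbko against 15.6 and 16.6 CPM in wt at 0h. At 6h it was at 62.8 and 18.1 CPM in dbko against 6.13 and 8.74 CPM in wt, higher by 2.44 ± 0.59 (adjusted p = 0.0141). This call and that of Ccna2 at 6h were lost with 1 library left out. Cdc25c, with 6.95 and 3.2 CPM (6h) and 10.8 and 4.31 CPM (0h) in dbko, had the smallest adjusted p of the 36 against cko at 6h (2.72 ± 0.52, adjusted p = 0.00571). The cko libraries at 6h held only 8 and 10 counts of Cdc25c, and its call was lost with 1 library left out. Plk1, with 31.3 and 11.9 CPM (6h) and 24.3 and 9.67 CPM (0h) in dbko, and Foxm1, with 75.9 and 32.3 CPM (6h) and 62 and 28.1 CPM (0h), were higher at 6h in both replicates.

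The Aurora and passenger genes were all higher than in wt at 6h. Aurka had 27.3 and 10.5 CPM (6h) and 42.1 and 21 CPM (0h) in dbko, and Aurkb 66 and 21.6 CPM (6h) and 56.8 and 21.3 CPM (0h). Birc5 had 56.6 and 12.3 CPM (6h) and 67.3 and 24.9 CPM (0h), and Cdca8 47.3 and 17.6 CPM (6h) and 55.4 and 24.2 CPM (0h). Of these Cdca8 alone was called against wt at 0h (1.63 ± 0.46, adjusted p = 0.0487, up to 0.344 with 1 library left out). Bub1, with 47.5 and 10.7 CPM (6h) and 46.5 and 17.6 CPM (0h) in dbko, and Bub1b, with 101 and 32.4 CPM (6h) and 68.8 and 30.6 CPM (0h), were higher than in wt at 6h. So were Cdc20, with 35.4 and 19.2 CPM (6h) and 45.4 and 18.5 CPM (0h), Ube2c, with 31.8 and 10.3 CPM (6h) and 45.2 and 17.8 CPM (0h), and Cdca3, with 63.9 and 18.8 CPM (6h) and 71.4 and 29.7 CPM (0h).

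Kinetochore genes again differed among themselves. Cenpa was at 96.7 and 86.3 CPM in dbko against 62.7 and 62.2 CPM in wt at 0h, higher by 0.55 ± 0.10 (adjusted p = 0.00356, up to 0.0508 with 1 library left out). At 6h it was at 80.2 and 73.7 CPM in dbko against 65.8 and 66.6 CPM in wt, a difference of 0.22 ± 0.10 (adjusted p = 0.124), and below both cko libraries of 82.6 and 81.7 CPM. Ndc80 was at 65.2 and 29.8 CPM in dbko against 16.7 and 16.8 CPM in wt at 6h, higher by 1.50 ± 0.30 (adjusted p = 0.00403). It was the 1 member whose call against wt at 6h held with any 1 library left out. At 0h Ndc80 was at 36.7 and 24.4 CPM in dbko against 18.6 and 21.7 CPM in wt. Spc25, with 26.8 and 8.75 CPM (6h) and 22.4 and 7.08 CPM (0h) in dbko, was called in no comparison of that fit. Cenpe had 122 and 23.7 CPM (6h) and 57.3 and 21.6 CPM (0h), Cenpf 86.3 and 19.4 CPM (6h) and 51.4 and 14.3 CPM (0h) and Nuf2 37.1 and 7.73 CPM (6h) and 31.6 and 10.6 CPM (0h).

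All 9 spindle motors and microtubule proteins were higher in dbko than in wt and cko at 6h. Kif11 had 198 and 38.5 CPM (6h) and 155 and 42.5 CPM (0h) in dbko, against 19.6 and 16.2 CPM in wt at 6h. Kif2c had 31.7 and 8.59 CPM (6h) and 21.6 and 8.14 CPM (0h), and Tpx2 83.1 and 22.3 CPM (6h) and 75.4 and 29.2 CPM (0h). Hmmr had 43 and 12.7 CPM (6h) and 71.3 and 26 CPM (0h), and was also called against wt at 0h (2.20 ± 0.56, adjusted p = 0.0335, up to 0.222 with 1 library left out). Kif20a had 84.6 and 24.4 CPM (6h) and 67.2 and 25.1 CPM (0h), Kif22 69 and 19.1 CPM (6h) and 56.7 and 18.5 CPM (0h) and Kif23 88 and 23.4 CPM (6h) and 89.5 and 31.7 CPM (0h). Nusap1 had 121 and 25.5 CPM (6h) and 98.3 and 35.1 CPM (0h), and Prc1 84.5 and 21.6 CPM (6h) and 103 and 41.1 CPM (0h). Replicate 1 was above replicate 2 for each.

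The 3 cytokinesis genes were all higher in dbko than in wt at 6h. Racgap1 had 85.8 and 46.8 CPM (6h) and 78.7 and 28.8 CPM (0h) in dbko, Ect2 32.7 and 12.1 CPM (6h) and 46.9 and 17.1 CPM (0h) and Anln 32 and 6.72 CPM (6h) and 33.5 and 13.2 CPM (0h). Mki67 (ENSMUSG00000031004, chromosome 7, 135689784 to 135716361) was at 503 and 166 CPM in dbko against 74.5 and 64.4 CPM in wt at 0h. At 6h it was at 574 and 109 CPM in dbko against 66.8 and 52 CPM in wt, higher by 2.52 ± 0.73 (adjusted p = 0.0344). This call was lost with 1 library left out. Top2a was at 363 and 123 CPM in dbko against 98.9 and 88 CPM in wt at 0h and at 589 and 119 CPM in dbko against 64.4 and 66.1 CPM in wt at 6h. For both, dbko replicate 2 was still above the wt pair at 6h.

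Within dbko some members rose and some fell from 0h to 6h in both replicates, and others differed in direction between the replicates. The median ratio of 6h to 0h over the members was 1.06 in replicate 1 and 0.741 in replicate 2. In edgeR's fit of all libraries 0 rose and 0 fell (19.3% and 20.3% of tested genes), 2 had an unadjusted p under 0.05, and DESeq2 called 0. With the replicate number as a block within each genotype 4 rose and 12 fell (23.0% and 24.2%). The direction of the calls turned with the library left out. Replicate 1 was above replicate 2 at both times, so fits without 1 library mix that offset with time. They cannot show the change in time. Without dbko 6h replicate 1, 0 rose and 20 fell (19.4% and 21.1%), and without its replicate 2, 5 rose and 0 fell (18.3% and 19.4%). Without dbko 0h replicate 1, 2 rose and 0 fell (16.7% and 19.2%), and without its replicate 2, 0 rose and 5 fell (16.7% and 18.6%). Both libraries of 6h lay above both of 0h for 0 members and below for 1 (tested genes 31.4% and 29.4%). The ratio of 6h to 0h was above 1 in both replicates for 11 members, below 1 in both for 16, above 1 in replicate 1 alone for 8 and in replicate 2 alone for 1, Cdc20. The share of tested genes that changed the same way in both replicates was not counted, so these counts cannot be read as particular to the members. Ccnb1 had the lowest ratios, 0.519 and 0.441. Cenpe had the highest in replicate 1, 2.13, and Racgap1 in replicate 2, 1.62. Without replicate 1 at both times, 1 rose and 14 fell (20.9% and 22.6%), and without replicate 2, 6 rose and 6 fell (19.9% and 22.4%).

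The 6h response of dbko differed from that of wt for 0 members in edgeR's fit of all libraries (6.9% of tested genes higher and 6.94% lower), with 1 at an unadjusted p under 0.05 and 0 in DESeq2. Without dbko replicate 1 it was higher for 4 and lower for 0 (8.23% and 8.05%), and without replicate 2 for 20 and 0 (16.5% and 15.4%).

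S phase genes were high in dbko as well, to another extent. Their sum was 4650 and 2650 CPM in dbko against 1890 and 1940 CPM in wt at 0h. At 6h it was 2910 and 1740 CPM in dbko against 1510 and 1540 CPM in wt. The sum of the 36 over the S phase sum was 0.644 and 0.433 in dbko against 0.38 and 0.36 in wt at 0h, and 1.17 and 0.531 in dbko against 0.341 and 0.33 in wt at 6h. From 0h to 6h the S phase sum changed to 0.625 and 0.657 of its value in dbko, and that of the 36 to 1.13 and 0.804. Of the S phase genes 0 rose and 11 fell in dbko at 6h (tested genes 19.3% and 20.3%), with the sliding clamp Pcna at -1.08 ± 0.14. Against wt at 6h, where 15.2% of tested genes were higher and 11.5% lower, 35 of 50 further mitotic genes were higher and 0 lower. Of 24 DREAM, MuvB and E2F regulators 6 were higher and 3 lower, and of 15 anaphase-promoting complex genes 3 and 2.

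**Figure D5:**
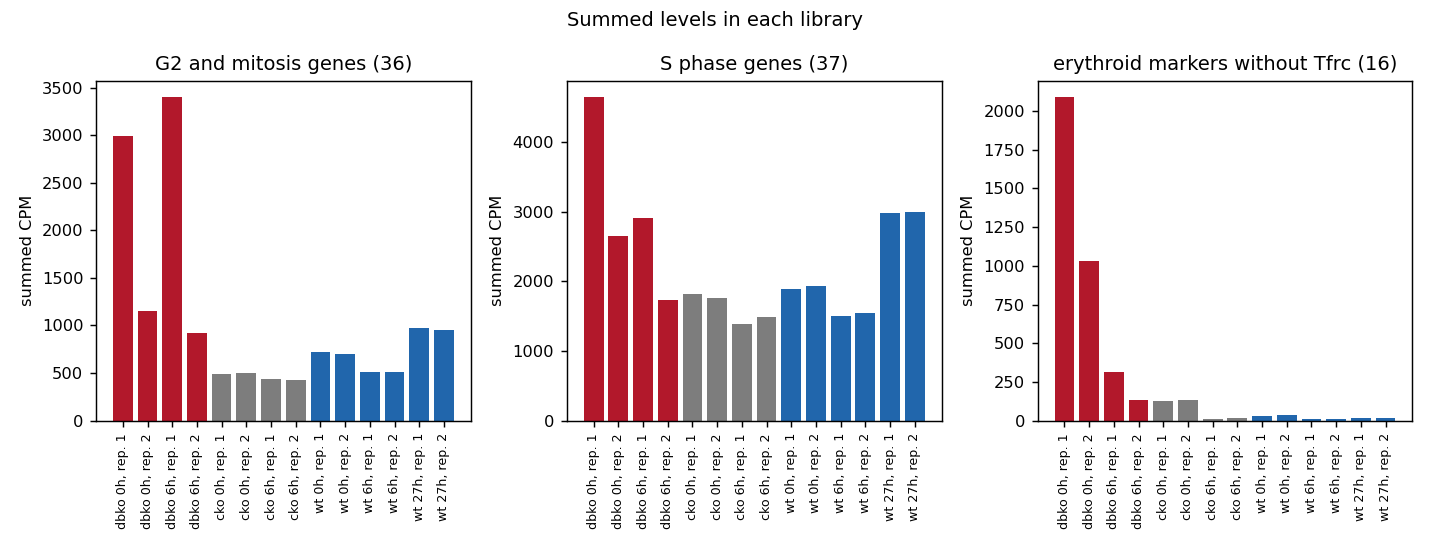
Summed CPM of the 36 genes, of 37 S phase genes and of 16 erythroid markers, 1 bar per library. The sum of the 36 peaks at 3400 CPM in dbko 6h replicate 1, and the erythroid sum peaks in dbko at 0h, at 2090 and 1030 CPM.

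Erythroid markers differed with genotype and replicate too, and their sum was lower in dbko at 6h than at 0h. All 17 tested were higher in dbko than in wt at 0h, and 16 were higher and 1 lower at 6h. In these comparisons 7.1% of tested genes were higher and 4.55% lower at 0h, and 15.2% and 11.5% at 6h. Without Tfrc they summed to 2090 and 1030 CPM in dbko against 32.7 and 38.3 CPM in wt at 0h, and to 311 and 136 CPM in dbko against 11.1 and 12.9 CPM in wt at 6h. From 0h to 6h the erythroid sum changed to 0.149 and 0.132 of its value in dbko. Of 12 monocyte and macrophage markers 2 were higher in dbko than in wt at 0h and 11 at 6h. They summed to 264 and 146 CPM in dbko against 155 and 158 CPM in wt at 0h. At 6h they summed to 245 and 91.6 CPM in dbko against 38 and 36.2 CPM in wt. Of 9 germinal centre B cell markers 4 were lower in dbko than in wt at 0h and 5 at 6h. Of 7 dendritic cell markers 5 were higher at 0h, and at 6h 3 were higher and 2 lower. Of 5 early B cell markers 4 were higher at 6h, as were 4 of 6 megakaryocyte and platelet markers, of which 1 was lower. The 12 T cell markers summed to 55.4 to 103 CPM over all libraries, with the defining marker Cd3e at 0.183 CPM at most. Of the 5 tested, 3 rose and 1 fell in dbko at 6h against 0h (median 1.37, tested genes 19.3% and 20.3%). At 6h 1 was higher in dbko than in wt and 2 than in cko (median 1.28, with 8.77% of tested genes higher than in cko). The part of these cells in the levels of the 36 genes was not tested.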

How the data were processed

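RNA was primed with poly-dT and sequenced on an Illumina instrument, per the labels' protocols. The deposited tables hold raw counts per Ensembl gene ID, 1 table per library, not normalized. CASAVA 1.8.2 is named in the submitters' processing notes. The aligner, counter, genome build and strand setting were not given in the sources used here. Ignoring strand, the spans of 13 of the 36 genes overlap another counted gene, 9 of them a protein-coding one (Ccna2, Cdc20, Kif20a, Nusap1, Prc1, Cdca8, Cdc25c, Foxm1, Ube2c). Whole gene spans were compared, so shared reads are possible but not shown, and these genes are uncertain to that extent. The overlapping genes held from 0 reads (all those of Top2a, Tpx2 and Ect2) to 13263 reads (Elovl1, at Cdc20) over all libraries. Tallies outside genes stayed out of library sizes: 5.21 to 11.46% in no feature, 38.77 to 49.85% at more than 1 place and 0.41 to 0.49% ambiguous.

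Symbols and coordinates came from GENCODE M21 (GRCm38), which held 37693 of the 39179 IDs. edgeR 4.0.16 in R 4.3.3 fitted 1 mean per group over all 14 libraries (TMM, filterByExpr, robust quasi-likelihood, two-sided, 7 residual degrees of freedom) after tests on simulated data. The members and the other gene lists were chosen with earlier results of these data known. All members are accounted for, and other genes named are among the 2 smallest adjusted p of a list or defining markers, save E2f8, Mybl2 and Jchain, named after their values were seen. Alternatives were DESeq2 1.42.0 and its size factors, no filter, a replicate block, the compared groups alone, and left-out libraries. Fits without the 4 dbko libraries were added after seeing the data. Replicate numbers mark lanes 7 and 8.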

Additional observations from a re-analysis of the deposited data

Results flagged for a closer look

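For 3 genes both 6h libraries of one genotype lay above both of its 0h libraries, while in another genotype both lay below. The share of tested genes with such opposite courses was not counted. Within 1 genotype, both 6h libraries lay past both 0h libraries for 29.4% to 41.9% of tested genes in each direction. Ndc80 was at 25.2 and 24.5 CPM in cko at 6h against 16 and 16.9 CPM at 0h, and at 16.7 and 16.8 CPM in wt at 6h against 18.6 and 21.7 CPM at 0h. The responses differed by 0.86 ± 0.43 (adjusted p = 0.348) in edgeR's fit of all libraries and by 0.83 ± 0.17 (adjusted p = 0.00535) without dbko. Anln was at 3.51 and 3.51 CPM in cko at 6h against 3.49 and 3.28 CPM at 0h, and at 3.02 and 4.33 CPM in wt at 6h against 6.25 and 6.09 CPM at 0h. The responses differed by 0.80 ± 1.01 (adjusted p = 0.763), and by 0.76 ± 0.36 (adjusted p = 0.187) without dbko. Cenpa was at 80.2 and 73.7 CPM in dbko at 6h against 96.7 and 86.3 CPM at 0h, and at 65.8 and 66.6 CPM in wt at 6h against 62.7 and 62.2 CPM at 0h. The responses differed by -0.33 ± 0.14 (adjusted p = 0.136). Groups of 2 are too small to test single libraries for standing apart.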

How the results depend on the processing

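The number of the 36 genes called depended on which libraries were fitted and on the filter. For several fits the share of tested genes called was not counted. Among these are the fits with no filter, of the compared groups alone, in DESeq2 and with its size factors. A shift in their counts cannot be read as particular to the 36 genes. No value called with all libraries, or without dbko, changed sign, whereas the direction of the calls in dbko at 6h against 0h turned with the library left out. That turn cannot be told apart from the offset between the dbko replicates. For wt 6h against wt 0h, the count called was 1, 0 with 1 library left out (22 to 24 when dbko was left out too), and 22 with no filter, 4 with a replicate block, 25 with a replicate block within genotype, 27 in the compared groups alone, 27 without dbko, 27 with a replicate block and no dbko, 4 in DESeq2. For wt 27h against wt 0h, the count called was 1, 1 with 1 library left out (16 to 18 when dbko was left out too), and 16 with no filter, 21 with a replicate block within genotype, 23 in the compared groups alone, 21 without dbko, 21 with a replicate block and no dbko. For wt 27h against wt 6h, the count called was 4, 1 with 1 library left out (31 to 34 when dbko was left out too), and 33 with no filter, 7 with a replicate block, 34 with a replicate block within genotype, 35 in the compared groups alone, 34 without dbko, 34 with a replicate block and no dbko, 12 in DESeq2. For cko 6h against cko 0h, the count called was 2, 0 with 1 library left out (11 to 18 when dbko was left out too), and 1 with DESeq2 size factors, 11 with no filter, 11 with a replicate block within genotype, 10 in the compared groups alone, 16 without dbko, 16 with a replicate block and no dbko, 1 in DESeq2. For dbko 6h against dbko 0h, the count called was 0, 2 to 20 with 1 library left out, and 1 with DESeq2 size factors, 12 with no filter, 1 with a replicate block, 16 with a replicate block within genotype, 15 without dbko replicate 1, 12 without dbko replicate 2. For cko 0h against wt 0h, the count called was 0, 0 with 1 library left out (8 to 10 when dbko was left out too), and 14 with no filter, 30 in the compared groups alone, 24 without dbko, 23 with a replicate block and no dbko. For dbko 0h against wt 0h, the count called was 4, 0 to 34 with 1 library left out, and 36 with no filter, 10 with a replicate block, 0 in the compared groups alone, 20 without dbko replicate 1, 36 without dbko replicate 2, 18 in DESeq2. For dbko 0h against cko 0h, the count called was 20, 0 to 36 with 1 library left out, and 35 with no filter, 10 in the compared groups alone, 34 without dbko replicate 1, 36 without dbko replicate 2. For cko 6h against wt 6h, the count called was 0, 0 with 1 library left out (3 to 13 when dbko was left out too), and 2 with no filter, 1 in the compared groups alone, 12 without dbko, 11 with a replicate block and no dbko. For dbko 6h against wt 6h, the count called was 34, 1 to 35 with 1 library left out, and 1 in the compared groups alone. For dbko 6h against cko 6h, the count called was 32, 0 to 35 with 1 library left out, and 2 in the compared groups alone. For the cko minus wt response, the count called was 0, 0 with 1 library left out (1 to 7 when dbko was left out too), and 2 in the compared groups alone, 2 without dbko, 3 with a replicate block and no dbko. For the dbko minus wt response, the count called was 0, 0 to 4 with 1 library left out, and 8 with no filter, 4 without dbko replicate 1, 20 without dbko replicate 2. Same-numbered libraries share a lane. Their deviations correlated over 0.1 in 7 of 21 pairs of groups, and within a genotype in 4 of 5 (dbko 0.44, cko 0.25, wt -0.02 to 0.16). The fits with a replicate block are therefore given beside those without. The cause of the higher counts with no filter was not tested. Of the 36 genes Cdc25c had the fewest counts, 8 to 115 a library, and the effect of depth was not tested.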

Other observations

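E2f8, a repressor of E2F targets, was at 100 and 30.9 CPM in dbko against 12.2 and 12.7 CPM in wt at 0h, and at 59.3 and 11 CPM in dbko against 5.94 and 4.84 CPM in wt at 6h. Mybl2, which encodes B-Myb, was at 31.5 and 13.8 CPM in dbko against 7.29 and 7.26 CPM in wt at 0h. In wt Mybl2 was highest at 27h, with 18.1 and 19.7 CPM. The plasma cell gene Jchain ran against the 36 genes between the dbko replicates, with 23.5 and 166 CPM (6h) and 46.6 and 143 CPM (0h). It was not alone in this. Sums of the plasma cell, germinal centre and follicular B cell lists were also lower in dbko replicate 1 at both times. Those of the S phase, erythroid and monocyte lists were higher in it.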
